A study of Mus musculus with 6 samples.

Results

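The genes described here encode the receptor for interleukin 2 (IL-2), the kinase and STAT proteins it signals through, and the feedback inhibitors that STAT proteins induce. They are 10 genes named by symbol (Il2ra, Il2rb, Il2rg, Jak3, Stat5a, Stat5b, Cish, Socs1, Socs2 and Socs3), taken by name and not by their values, and all 10 were found among the 32801 gene symbols of the table. Their RNA was sequenced in thymic regulatory T cells (Treg), a suppressive CD4+ lineage, from animals 3 weeks old. The design sets 3 libraries of NOD, an inbred mouse strain prone to spontaneous autoimmune diabetes, against 3 of C57BL/6 (B6), whose genome is the mm10 reference. Cells of both strains were sorted as GFP- CD4+CD8- and Thy1.1+. Which transgenes or alleles give GFP and Thy1.1 is not stated in the labels, nor is whether animals were pooled. The comparison asks how these genes differ in level between NOD and B6 Treg of this sort. Values, called normalized counts below, are reads per gene after division by the library's size factor, as whole numbers.

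IL-2 binds a receptor of 3 chains. The alpha chain (Il2ra, CD25) raises the affinity for the cytokine, and the beta chain (Il2rb, CD122) and the common gamma chain (Il2rg, CD132) carry the signal. The kinases JAK1 and JAK3, bound to the beta and gamma chains, phosphorylate STAT5A and STAT5B, which enter the nucleus and induce target genes. Among those targets are the gene of CIS (Cish) and SOCS genes, whose products bind the activated receptor or kinases and limit the signal. Treg make almost no IL-2 of their own and depend on IL-2 from other cells for their development and upkeep, and a diabetes susceptibility region of the NOD strain holds the Il2 gene.

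Depth per library, inferred from how rounding spaced the low values, lay between 15500000 and 21600000 reads. The 10 genes read as a Treg list were present in every library. They include Cd4, Cd3e and Trac, which other T cells also express. The lineage factor Foxp3 stood at 1701 to 2446 normalized counts and Cd4 at 5825 to 7952. Neither was called by the test below. Foxp3 overlapped between the strains. Cd4 was higher in all 3 NOD libraries (7952, 7248 and 7846) than in all 3 of B6 (6334, 5825 and 6407), with a limma adjusted p of 0.077. Of the same list 3 genes were called, chosen for mention after their values were seen: Lrrc32, which encodes the surface protein GARP (log2 difference -0.52, limma adjusted p = 0.012), and the T cell receptor gene Trac (-0.55, adjusted p = 0.0072) were lower in NOD, and Cd3e was higher (0.77, adjusted p = 0.0022). Separate animals are not stated for the replicates, so p-values speak only of the spread between these samples, and that spread may be technical. The test was limma-trend on log2(value + 1) across 16442 genes with Benjamini-Hochberg adjustment, and "called" means an adjusted p under 0.05. With it 1626 genes were called, which is 9.89% of those tested (4.59% higher and 5.3% lower in NOD).

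Of the 10 genes, 2 were called, Il2rb and Cish, and both were lower in NOD. A share of 2 in 10 stands beside 9.89% over all genes tested, and with so few members the 2 shares cannot be set apart. Differences below 0 were seen for 7 of the 10 and above 0 for 3, with a median of -0.12 on the log2 scale (0.01 over all genes tested). All 10 passed the filter on low values. The sizes were modest, from -0.58 for Cish to 0.32 for Socs2. In bulk samples, fewer cells that express a gene and less RNA per cell cannot be told apart. The processing notes list mm10, the B6 genome, as the only reference for reads of both strains. Any effect of that reference on the counts of NOD was not tested.

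**Figure D1:**
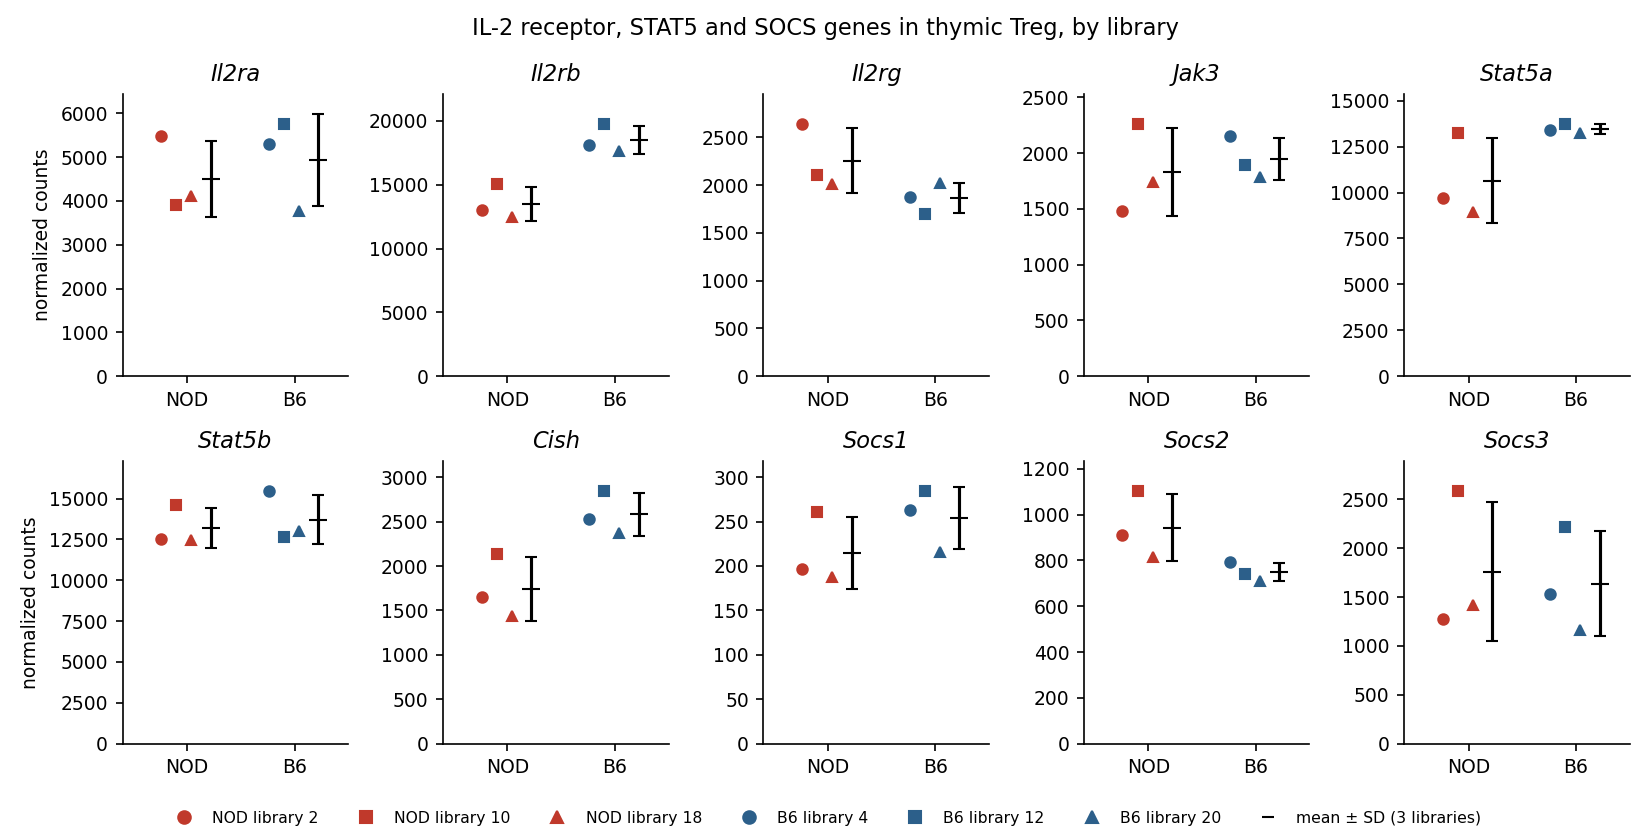
Normalized counts (vertical axis, starting at 0, with its own scale for each gene) of the 10 genes in the 3 NOD and 3 B6 libraries. Each point is 1 library, and the bar is the mean ± SD of 3 libraries. The NOD points lie below all B6 points for Il2rb and Cish and above them for Socs2, while the other 7 genes overlap.

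**Figure D2:**
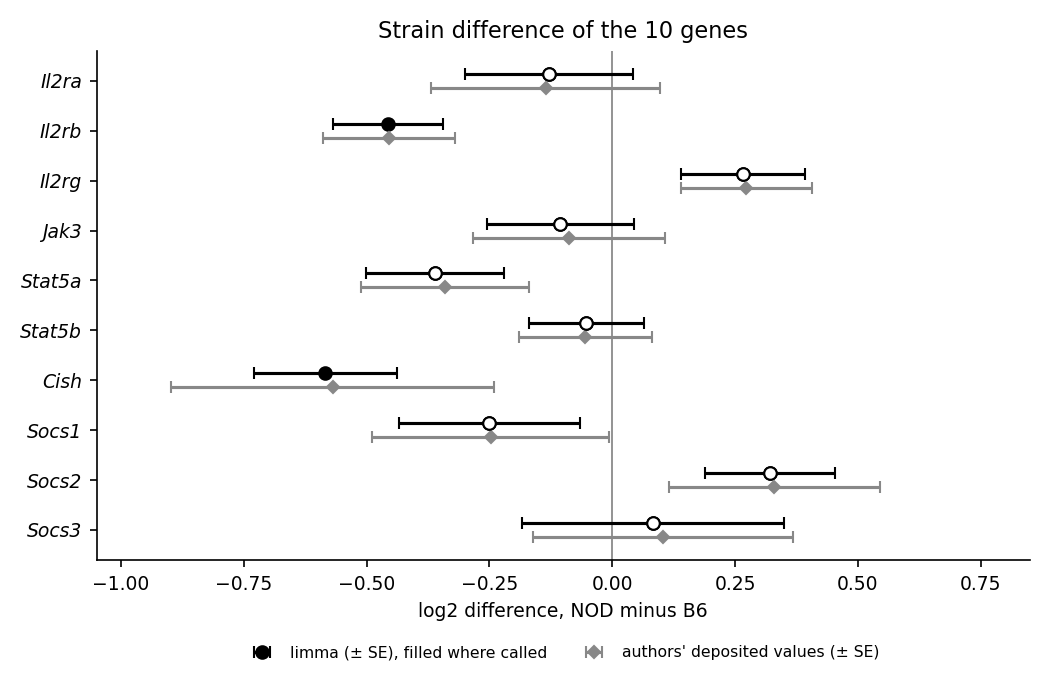
Log2 difference (NOD minus B6, horizontal axis) of the 10 genes with its standard error, from limma (circles) and from the authors' deposited DESeq2 comparison (diamonds). Filled circles mark Il2rb and Cish, the genes called by limma, and the estimates of the 2 sources lie close together while the error of Cish is larger in the authors' values.

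Il2rb encodes the signalling beta chain that the receptors for IL-2 and IL-15 share (chromosome 15, 78479256 to 78495271, minus strand, GENCODE M21 on GRCm38). It stood at 13024, 15038 and 12477 normalized counts in NOD libraries 2, 10 and 18, and at 18100, 19780 and 17654 in B6 libraries 4, 12 and 20. All 3 NOD libraries were below all 3 B6 libraries, and the highest NOD library, 10, was 2616 counts short of the lowest B6 library. The means were 13513 ± 1349 and 18511 ± 1121 (SD, n = 3 each), a level 27.0% lower in NOD. The log2 difference was -0.46 ± 0.11 (SE, 95% interval -0.70 to -0.21, limma adjusted p = 0.024). The authors' deposited table gives -0.45 for Il2rb, with a standard error of 0.13 and an adjusted p of 0.010, the 1 adjusted p below 0.05 that it holds for the 10 genes (9.75% of all genes with an adjusted p there). The limma call ended on omission of any of 4 libraries, NOD library 2 (adjusted p = 0.097), NOD library 18 (0.12), B6 library 4 (0.067) and B6 library 12 (0.11), and in limma without a trend (0.12). The log2 difference itself stayed between -0.54 and -0.40 in all 6 fits that omit a library.

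Il2rb is also a gene of natural killer (NK) cells and of memory CD8+ T cells. A CD4+CD8- gate is set to leave out both, and NK markers and the CD8 genes Cd8a and Cd8b1 were read beside Il2rb. Of 12 NK cell markers, 4 were at no more than 10 normalized counts in every library, among them Ncr1 (0, 0 and 9 in NOD, 0, 2 and 0 in B6) and Klrb1c (3, 3 and 8 in NOD, 3, 5 and 10 in B6). The summed level of the 12 ran from 513 to 659 in NOD and from 544 to 754 in B6, most of it from Nkg7, and the groups overlapped. Of the 5 NK markers that were tested, Gzma was called higher in NOD and Tyrobp lower, both at no more than 52 counts in every library. These 2 of 5 stand beside 9.89% of all genes tested. Eomes was not called (adjusted p = 0.050), but its 76, 21 and 59 counts in NOD were above the 17, 16 and 6 of B6. Cd8a was called higher in NOD, at 124, 35 and 100 counts against 10, 17 and 18 in B6 (limma adjusted p = 0.0075). Cd8b1 was not called, at 117, 135 and 134 against 105, 99 and 131 (limma adjusted p = 0.65). The part of NK and CD8+ T cells in the Il2rb difference was not tested.

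Il2ra, the alpha chain by which Treg are recognised (chromosome 2, 11642807 to 11693193, plus strand), did not separate the strains. It stood at 5488, 3906 and 4104 normalized counts in NOD libraries 2, 10 and 18 and at 5301, 5761 and 3763 in B6 libraries 4, 12 and 20. The highest and the lowest value both came from B6, and the spread within a strain exceeded the difference between the means. The log2 difference was -0.13 with a 95% interval of -0.51 to 0.25 (limma adjusted p = 0.77). Changes within that interval are not excluded by these libraries.

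Il2rg encodes the gamma chain, which the receptors for IL-4, IL-7, IL-9, IL-15 and IL-21 also use (chromosome X, 101264378 to 101268255, minus strand). It stood at 2643, 2111 and 2011 normalized counts in NOD and at 1874, 1702 and 2024 in B6, in the same order of libraries. NOD library 18 lay 13 counts below B6 library 20, and otherwise the NOD libraries were higher. The log2 difference of 0.27 ± 0.13 (95% interval -0.01 to 0.54) did not pass the test (limma adjusted p = 0.27). In the annotation, 30.5% of the exon bases of Il2rg also belong to Gm20489, a gene model on the same strand that was listed at a mean of 0.67 normalized counts, and reads in shared exons may have been left uncounted.

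A ratio of 2 genes within a library does not depend on the size factor of that library. The ratio of Il2rb to Il2rg counts was 4.93, 7.12 and 6.20 in NOD libraries 2, 10 and 18, and 9.66, 11.6 and 8.72 in B6 libraries 4, 12 and 20. Every NOD library was below every B6 library. The ratio of Il2rb to Il2ra, 3.09 ± 0.74 in NOD and 3.85 ± 0.73 in B6, overlapped between the strains, as did that of Il2ra to Il2rg (1.99 ± 0.12 and 2.69 ± 0.77). These ratios are given as a description, with no test. They are of counts not divided by gene length, so only their change between strains can be read.

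**Figure D3:**
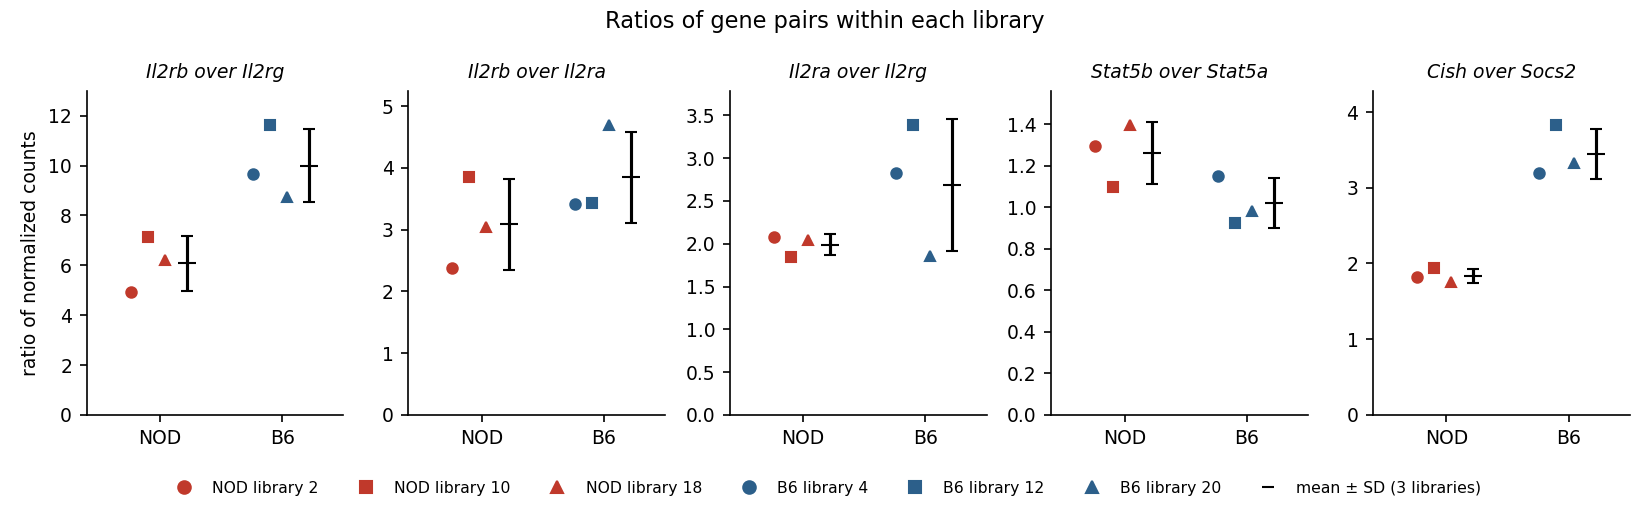
Ratio of the normalized counts of 2 genes within each library (vertical axis, starting at 0) for 5 gene pairs. Each point is 1 library, and the bar is the mean ± SD of 3 libraries. NOD points lie below all B6 points for Il2rb over Il2rg and for Cish over Socs2, and the strains overlap in the other 3 panels.

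Jak3, the kinase bound to the gamma chain (chromosome 8, 71676296 to 71690575, plus strand), stood at 1485, 2264 and 1740 normalized counts in NOD and at 2155, 1893 and 1787 in B6. NOD held both the lowest and the highest library. The log2 difference was -0.11 with a 95% interval of -0.44 to 0.22 (limma adjusted p = 0.79). Its partner Jak1, bound to the beta chain, was not called either (11982 ± 448 against 11182 ± 584, log2 difference 0.10, adjusted p = 0.67). A stretch of 7.55% of Jak3 exon bases is shared with Insl3, which had a mean of 7.5 normalized counts.

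Stat5a and Stat5b are neighbouring, closely related genes on chromosome 11 (100859351 to 100885169, plus strand, and 100780731 to 100850724, minus strand), whose products bind the same DNA motif. Stat5a stood at 9705, 13270 and 8942 normalized counts in NOD libraries 2, 10 and 18 and at 13409, 13748 and 13250 in B6 libraries 4, 12 and 20. The B6 libraries lay within 498 counts of each other, NOD libraries 2 and 18 were well below them, and NOD library 10 lay at the level of B6. The log2 difference of -0.36 ± 0.14 (95% interval -0.67 to -0.05) did not pass the test over all genes (limma adjusted p = 0.16). Without NOD library 10 it was -0.53 and passed (adjusted p = 0.0064), in a range of adjusted p from 0.0064 to 0.50 over the 6 fits that omit a library. The authors' deposited table gives -0.34 for Stat5a with an adjusted p of 0.25.

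Stat5b stood at 12553, 14584 and 12464 normalized counts in NOD and at 15448, 12680 and 12994 in B6. NOD library 10 lay within the B6 range, NOD libraries 2 and 18 lay just below its lower end, and the log2 difference was -0.05 (95% interval -0.31 to 0.21, limma adjusted p = 0.88). Stat5a made up 43.6%, 47.6% and 41.8% of the summed counts of both STAT5 genes in the NOD libraries, and 46.5%, 52.0% and 50.5% in the B6 libraries. NOD library 10 exceeded B6 library 4 in that share, so the strains overlapped there too. Of all windows of 75 bases in the annotated transcripts of Stat5a, 5.12% also occur in Stat5b (6.99% in the other direction). No other pair of the 10 genes shares such a window. Most windows of this length thus differ between the 2 genes, and a read of 75 bases in a shared window could not be told apart. How the reads of these libraries were divided between the 2 genes was not examined.

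Cish encodes CIS, an SH2 domain protein that STAT5 induces and that blocks further recruitment of STAT5 to cytokine receptors (chromosome 9, 107296026 to 107302784, plus strand). It stood at 1650, 2139 and 1434 normalized counts in NOD libraries 2, 10 and 18 and at 2534, 2842 and 2371 in B6 libraries 4, 12 and 20. All 3 NOD libraries were below all 3 B6 libraries, with means of 1741 ± 361 and 2582 ± 239 (SD, n = 3 each), a level 32.6% lower in NOD. The log2 difference was -0.58 ± 0.15 (SE, 95% interval -0.90 to -0.26, limma adjusted p = 0.025), the largest of the 10 genes. The authors' deposited table gives nearly the same size for Cish, -0.57, with a standard error of 0.33 and an adjusted p of 0.37, which does not pass. The same 4 omissions as for Il2rb ended its limma call, with an adjusted p of 0.089 (NOD library 2), 0.12 (NOD library 18), 0.087 (B6 library 4) and 0.12 (B6 library 12). It was 0.15 in limma without a trend, and over the 6 fits the log2 difference ran from -0.74 to -0.45. Antisense models overlap 7.46% (Gm17041) and 4.07% (Gm17040) of its exon bases, and strand was not stated. Gm17040 was listed at a mean of 6.67 normalized counts, and no value was at hand for Gm17041. Reads in shared exons may have been left uncounted, and any effect of these overlaps on the counts of Cish was not tested.

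The start of Cish and of the other genes was searched for TTCNNNGAA, the palindromic motif that STAT5 dimers bind, since it is the sequence through which STAT5 acts on feedback genes. RefSeq windows (GRCm38.p6) of 250 bases before and 50 after a transcript start were at hand for 8 of the 10 genes, all but Il2rb and Socs2, in 10 windows. The motif occurred in 2 of the 8 genes, Cish and Socs3, and in 8.30% of all 32851 windows. Cish held it at bases 1 and 12 of the RefSeq transcript, and 0.457% of all windows held at least 2. GENCODE M21 places the start of Cish further upstream, at 107296026, and all 250 bases before the RefSeq start lie in its GENCODE exons. Whether the motif lies at the start of the gene thus depends on the annotation. Below, the matched stretch of each is shown 5′ to 3′ on the gene's strand with the fixed letters of the motif in capitals, followed by the 250 bases before the start of Il2ra, the defining receptor gene, which hold no match. The Cish stretch is chr9:107296654-107296683 (plus strand), the Socs3 stretch chr11:117969507-117969525 (minus strand) and the Il2ra stretch chr2:11642542-11642791 (plus strand).
Cish: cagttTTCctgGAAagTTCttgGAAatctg
Socs3: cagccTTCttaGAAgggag
Il2ra: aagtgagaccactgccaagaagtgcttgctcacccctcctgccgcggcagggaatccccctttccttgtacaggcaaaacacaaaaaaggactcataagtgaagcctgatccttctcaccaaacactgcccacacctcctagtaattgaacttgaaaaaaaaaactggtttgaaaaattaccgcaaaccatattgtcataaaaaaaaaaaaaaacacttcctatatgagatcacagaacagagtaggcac
These are letters of the B6 reference. A match is a description of the sequence, and its absence says only that the letters are not in that window.

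None of the 3 SOCS genes among the 10 was called. Socs2, best known as an inhibitor of growth hormone signalling and also induced by STAT5 (chromosome 10, 95385362 to 95417180, minus strand), stood at 909, 1102 and 816 normalized counts in NOD and at 793, 743 and 712 in B6. All 3 NOD libraries were above all 3 B6 libraries, the opposite order to Cish, though NOD library 18 exceeded B6 library 4 by 23 counts only. The log2 difference of 0.32 ± 0.13 (95% interval 0.03 to 0.61) did not pass the test over all genes (limma adjusted p = 0.20). The authors' deposited table gives 0.33 for Socs2 with an adjusted p of 0.46. Complete separation of the strains, seen for Il2rb, Cish and Socs2, occurred for 24.1% of all genes tested, so 3 of 10 is near that background.

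The ratio of Cish to Socs2 was set out after these values were seen. It was 1.82, 1.94 and 1.76 in NOD libraries 2, 10 and 18, and 3.20, 3.83 and 3.33 in B6 libraries 4, 12 and 20. The means were 1.84 ± 0.09 and 3.45 ± 0.33 (SD, n = 3 each), and within NOD the ratio varied little although both genes were highest in library 10. No test is given, since the pair was chosen for its opposite order.

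Socs1, which inhibits JAK kinases directly (chromosome 16, 10782240 to 10785536, minus strand), had the fewest counts of the 10. It stood at 196, 261 and 187 in NOD and at 263, 284 and 216 in B6. The strains overlapped, and the log2 difference of -0.25 (95% interval -0.65 to 0.15) did not pass the test (limma adjusted p = 0.53). Counting error alone gives a coefficient of variation of 6.72% in NOD and 6.33% in B6 at this depth, against observed values of 18.8% and 13.7%. Socs3, the inhibitor of signalling through gp130 cytokine receptors (chromosome 11, 117966079 to 117970047, minus strand), stood at 1281, 2584 and 1422 in NOD and at 1534, 2220 and 1164 in B6. It varied most within a strain, with a coefficient of variation of 40.6% in NOD and 32.7% in B6, and library 10 of NOD and library 12 of B6 stood apart from the other libraries of their strain. The log2 difference of 0.08 had a 95% interval of -0.50 to 0.67 (limma adjusted p = 0.91), and its sign changed to -0.23 without NOD library 10 and to -0.14 without B6 library 20.

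Within NOD, 8 of the 10 genes were highest in library 10, all but Il2ra and Il2rg, whereas 39% of all genes tested were highest there. Library 18 was the lowest NOD library for 7 of the 10 genes (31.2% of all genes tested), all but Il2ra, Jak3 and Socs3. The median deviation of the 10 genes from the NOD mean was 0.27 on the log2 scale in library 10 and -0.17 in library 18, while that of all genes tested was 0.01 and -0.01. Within B6, library 20 was lowest for 8 of the 10 (35.1% of all genes tested) and library 12 highest for 6 (30%). Il2ra ran against its pathway within NOD, lowest in library 10 and highest in library 2, but followed Cish and Socs1 within B6. Genes of 1 pathway are not independent, so these counts describe the libraries and carry no test.

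**Figure D4:**
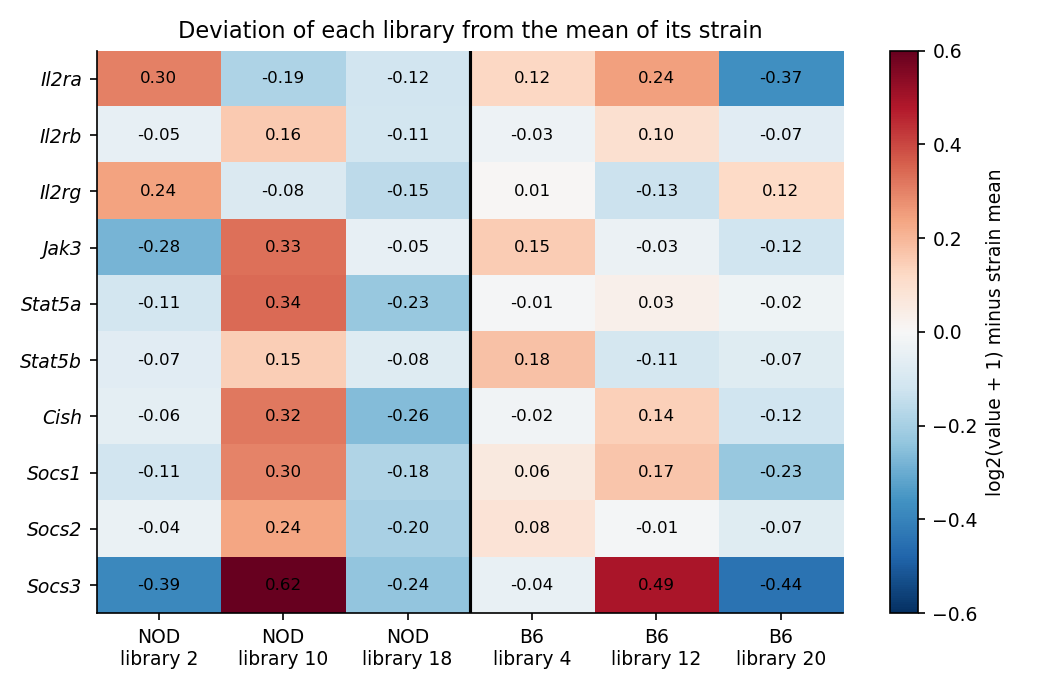
Deviation of each library (columns) from the mean of its strain, on the log2(value + 1) scale, for each of the 10 genes (rows), with the value printed in each cell. In the NOD library 10 column 8 genes lie above 0, from 0.15 for Stat5b to 0.62 for Socs3, while Il2ra and Il2rg lie below.

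Levels of different genes were compared as normalized counts per kilobase of merged exons, on which scale Il2rb was the most abundant of the 10. It reached 3152 ± 315 per kilobase in NOD and 4318 ± 262 in B6. Stat5b followed at 2383 ± 217 and 2475 ± 274, and Stat5a at 1492 ± 324 and 1888 ± 35.7. Over the 6 libraries the ranges of Il2rb, Stat5b and Stat5a did not overlap with that of the next gene in this order. Then came Il2rg (945 ± 142 and 782 ± 67.5), Il2ra (788 ± 151 and 865 ± 183), Socs3 (610 ± 247 and 567 ± 185), Jak3 (342 ± 74.2 and 363 ± 35.4) and Cish (271 ± 56.3 and 402 ± 37.3). The range of each of these overlapped with that of its neighbour, so the order of neighbours is not resolved. Socs2 (98.9 ± 15.3 and 78.6 ± 4.29) and Socs1 (73.8 ± 13.9 and 87.5 ± 11.97) were the least abundant and overlapped each other. Merged exons count every annotated transcript alike, used or not, and for Socs2 they come to 13 exons over 9531 bases.

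By the likeness rule, the genes whose pattern across the 6 libraries was nearest to that of Il2rb were Zeb1, a zinc finger repressor (Pearson r = 0.997 of log2 values), Mapkapk3, a kinase downstream of p38 (0.995), and Fancc, a DNA repair gene (0.995). Zeb1 stood at 7670, 8319 and 7602 normalized counts in NOD and at 9346, 9792 and 9045 in B6, so it shared with Il2rb both the lower level in NOD and the high libraries 10 and 12. These 3 were the closest of 9732 genes over 6 libraries in 2 clusters, where high values of r arise readily, and they are given as a description.

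The wider pathway was read from 8 lists, with 82 of 86 symbols in the table and 77 tested. Of those 77, 9 were called higher and 6 lower in NOD, and 62 did not pass, with a median log2 difference of -0.02 (0.01 over all genes tested). These 15 of 77 stand beside 9.89% of all genes tested (4.59% higher and 5.3% lower). The genes called were spread over 5 of the lists, and the 15 phosphatases and other brakes and the 6 SOCS box ubiquitin ligase subunits held none. In limma without a trend 6 of the 15 passed, Gab2, Gzmb, Prnp, Ccnd3, Capg and Id2.

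**Figure D5:**
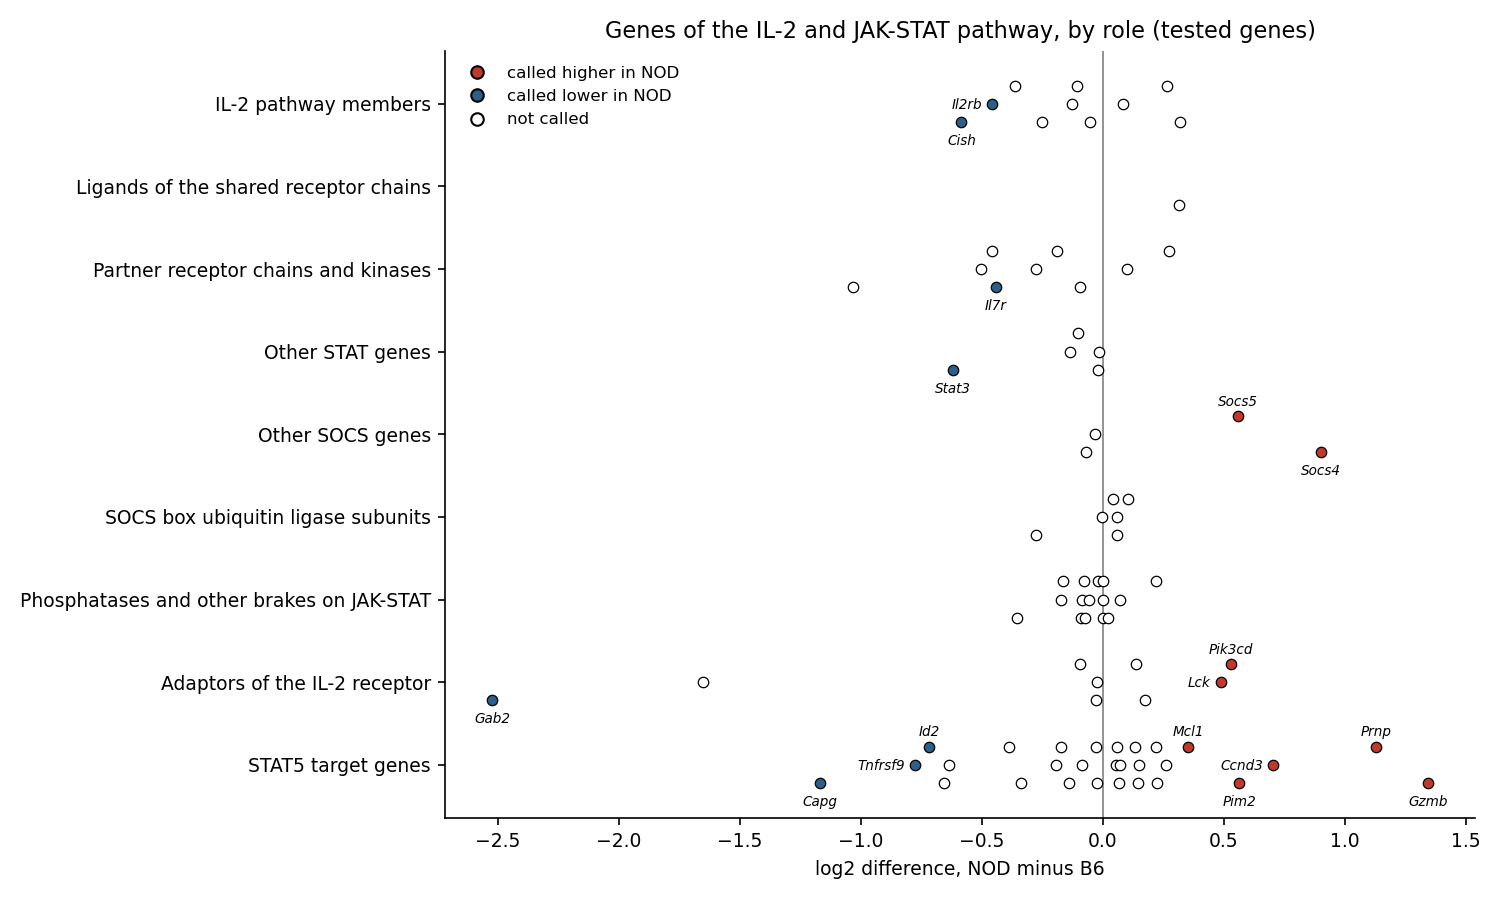
Log2 difference (NOD minus B6, horizontal axis) of each tested gene of the IL-2 and JAK-STAT pathway, in rows by role, with points offset vertically for legibility. Filled points are genes called by limma, red where higher and blue where lower in NOD, and most genes lie as open points near 0.

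Among ligands, Il2 itself was listed at 2, 15 and 15 normalized counts in NOD and at 3, 8 and 7 in B6, below the filter. Il7, Il15, Il21 and Tslp were also too low to be tested, and Il4, the ligand of 6 that was tested, did not pass. Of 9 partner chains and kinases, Il7r, which pairs with the gamma chain to bind IL-7, was called lower, at 3234 ± 280 against 4398 ± 369 (log2 difference -0.44 ± 0.11, limma adjusted p = 0.024). It was no longer called on omission of NOD library 18 (adjusted p = 0.11), B6 library 4 (0.11) or B6 library 20 (0.070). Il4ra (0.27), Il9r (-0.46), Il15ra (-0.50) and Il21r (-0.28), chains of the other receptors that use Il2rg, did not pass.

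Among other STAT genes, Stat3, which IL-6, IL-10 and IL-21 activate, was called lower. It stood at 16647, 17847 and 14069 normalized counts in NOD libraries 2, 10 and 18 and at 25362, 24676 and 24187 in B6 libraries 4, 12 and 20. The strains were far apart, and the log2 difference of -0.62 ± 0.12 (limma adjusted p = 0.0052) was called in all 6 fits that omit a library. Stat3 lies next to Stat5a, and their annotated exons share 72 bases on opposite strands, 1.01% of the Stat5a exon bases. Stat2 (-0.11), Stat4 (-0.14) and Stat6 (-0.02) did not pass.

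Of the 4 other SOCS genes, Socs4 and Socs5 were called higher in NOD (2 of 4, beside 9.89% of all genes tested). Socs4 stood at 1601, 1034 and 1694 normalized counts in NOD and at 783, 564 and 976 in B6, a log2 difference of 0.90 ± 0.22 (limma adjusted p = 0.022). Socs5, described as an inhibitor of IL-4 and epidermal growth factor signalling, stood at 1956, 1567 and 2385 in NOD and at 1363, 1190 and 1415 in B6 (0.56 ± 0.15, adjusted p = 0.037). The strains did not overlap for either gene, and in both, NOD library 10 was the lowest NOD library, the reverse of Socs1, Socs2 and Socs3. The call of Socs4 was lost in 4 of the 6 fits that omit a library (it held on omission of NOD library 10 and of B6 library 20, and the adjusted p otherwise reached 0.11), and that of Socs5 in 5 (it held on omission of NOD library 10, and otherwise reached 0.17). Socs6 (-0.03) and Socs7 (-0.07) did not pass.

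Of 9 adaptors of the receptor, 2 were called higher and 1 lower (3 of 9, beside 9.89% of all genes tested). Lck, the kinase that associates with the beta chain and with CD4, rose from 5138 ± 385 normalized counts in B6 to 7202 ± 59.9 in NOD (log2 difference 0.49 ± 0.10, limma adjusted p = 0.0076), and so did Pik3cd, the catalytic subunit of PI3K delta (0.53 ± 0.14, adjusted p = 0.032). Gab2, the scaffold that links the receptor to PI3K, fell from 63 ± 9.64 in B6 to 10.3 ± 3.21 in NOD (-2.52 ± 0.35, adjusted p = 0.00058), a low level in both strains. The call of Pik3cd was lost in 4 of the 6 fits that omit a library, which omit NOD library 2 or 10 or B6 library 12 or 20 (adjusted p up to 0.11), and Lck and Gab2 were called in all 6.

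Of 28 genes described as targets of STAT5, 5 were called higher and 3 lower (8 of 28, beside 9.89% of all genes tested), with a median of 0.06. Higher were Gzmb (granzyme B, log2 difference 1.34 ± 0.18), Prnp (1.13 ± 0.14), Ccnd3 (cyclin D3, 0.70 ± 0.12), Pim2, a survival kinase (0.56 ± 0.13), and Mcl1, an anti-apoptotic gene (0.35 ± 0.10). Lower were Capg, an actin-capping protein (-1.17 ± 0.14), Tnfrsf9 (-0.78 ± 0.15) and Id2 (-0.72 ± 0.11). Foxp3 (-0.03), Bcl2 (0.05) and Bcl2l1 (-0.14) did not pass. The limma adjusted p of Pim2 was 0.019 and that of Mcl1 0.045, and omission of NOD library 18, B6 library 4 or B6 library 12 ended both calls (for Mcl1 that of NOD library 2 too), the adjusted p reaching 0.11 for Pim2 and 0.17 for Mcl1. Mcl1 was not called with no filter on low values (adjusted p = 0.079) or with quantile normalization (0.056) either. The other 6 were called in all 6 fits that omit a library. The genes of this list thus moved in both directions, and many of them also answer to other signals.

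Markers of other cells that a thymic sort could hold were also read. Of 12 markers of dendritic cells and macrophages, 6 passed the filter on low values and were tested. Of those 6, 3 were called lower in NOD (Zbtb46, H2-Aa and Cd74), beside 9.89% of all genes tested. The summed level of the 12 ran from 1295 to 1489 in NOD and from 2226 to 2260 in B6. Zbtb46 (713 to 1272 normalized counts) and Cd74 (315 to 792) made up most of that sum. Of the other 9, Flt3, Batf3, Siglech and Clec9a were at no more than 10 normalized counts in every library. Adgre1, which was too low to be tested, was at 0, 0 and 2 in NOD and at 9, 9 and 22 in B6, Lyz2 at 3, 3 and 15 and at 38, 13 and 33 (not called, adjusted p = 0.068), and Xcr1 (56 to 99), Csf1r (14 to 25) and Itgax (2 to 16) overlapped between the strains. The summed level exceeded Socs1 and Socs2 in every library, but it adds 12 genes and is not divided by gene length. It therefore gives no measure of how many such cells were present. Summed levels of 10 immature thymocyte markers ran from 2447 to 2970 in NOD and 2193 to 2458 in B6, mostly from Cd1d1 and Themis. Of the 8 that were tested, Cd8a was called higher and Rag1 lower in NOD. Ptcra, not tested, was at 0 in 5 of the 6 libraries. The 8 B cell markers summed to 154 to 219 and 191 to 241. Of these, 3 were tested with 0 called, and the others were too low to be tested. The 6 thymic epithelial markers summed to 174 to 247 and 250 to 333, with Aire called lower among 3 tested. The 6 markers of gamma-delta and innate-like T cells summed to 90 to 183 and 94 to 126, with Sox13 called higher among 5 tested. The shares called in these lists also stand beside 9.89% of all genes tested. The part of these cells in the differences of Il2rb and Cish was not tested.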

How the data were processed

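RNA extraction (miRNeasy micro kit) and library preparation (TruSeq Standard Total RNA LT) are as in the labels' protocols. The submitters' processing notes list Trimmomatic, STAR, DESeq2 and mm10 without versions, so these are the steps of the authors. Counter, annotation and strand setting: not given in the sources used here. The 6 sample columns deposited are scores, namely gene read counts scaled by a size factor for each library and then made whole, per the file headers. The authors also deposited log2 fold changes with standard errors, p-values, and a mean and a statistic (further scores), and that mean differs from the average of the 6 columns. For Socs1 it is 420, above the highest of the 6 values, 284. Which libraries entered the authors' fit is not known, so its standard errors and adjusted p may rest on another set of libraries.

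Columns were matched to strain by name. Column numbers differ from the labels' replicate numbers, so each library is named by its column number and no pairing was made. Genes reaching 10 normalized counts in 3 or more libraries (2 if a library was omitted) were fitted with limma 3.58.1 in R 4.3.3 on log2(value + 1), strain being the only term, with a trend in empirical Bayes moderation, two-sided. Rounding hides some read counts, so no count test was run. Depth was estimated from values that rounding skipped or doubled, and on 7 simulated libraries the estimated factor was at most 0.064% off. The fit was tested on simulated data, and TMM factors (an alternative scaling) were computed with R code written for the purpose. Motifs and exon lengths were computed in Python 3.11.15, exon lengths from GENCODE M21. The members, gene lists, tests and the naming rule were chosen with earlier results of these data known. The rule names all 10 members, called genes of the pathway lists and of the lists of other cell types, up to 3 others per pathway list, Foxp3 and Cd4, and the 3 genes nearest to the member with the lowest adjusted p. Some genes beyond that rule (Lrrc32, Trac, Cd3e, Eomes, Nkg7, Ncr1, Klrb1c and other markers, Stat2, Stat4, Stat6, Il4ra, Il9r, Il15ra, Il21r) were named after their values were seen. Counting error is that of reads, which carry no molecular identifiers.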

Additional observations from a re-analysis of the deposited data

How the results depend on the processing

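No paired analysis was possible because the columns carry no replicate number of the labels. Of the 10 genes, 2 were called in the main analysis, 0 with limma without a trend, and 0 to 3 when a single library was omitted. Those 6 fits called 1105 to 1774 genes in all (490 to 781 higher, 569 to 1011 lower), against 1626, 755 and 871. Without NOD library 18 the number higher was 490, and without B6 library 4 the number lower was 569. Array weights called 2681 genes (1247 higher, 1434 lower) and a mean of at least 100 normalized counts, which tests fewer genes, 962 (454 and 508). The genes of the pathway lists called fell from 15 to 6 without a trend, and were 10 to 18 when a library was omitted. Without a trend, the adjusted p was 0.12 for Il2rb and 0.15 for Cish, and the cause was not tested. Both kept their call and direction with a pseudocount of 0.5 or 10, both other filters, TMM rescaling, quantile normalization and array weights. Stat5a was called with array weights (-0.48, adjusted p = 0.011). Signs changed for genes that were not called: Socs3 with array weights (-0.16) and, over the omission of a library, from -0.23 to 0.33, Jak3 (-0.27 to 0.034) and Stat5b (-0.13 to 0.037). Omitting NOD library 10 and B6 library 12 together, chosen after seeing the data, gave Il2ra a difference of 0.088, and Il2rb, Cish and Stat5a were called (adjusted p of 0.036, 0.015 and 0.029), while Pik3cd (0.15), Mcl1 (0.12), Pim2 (0.12) and Tnfrsf9 (0.085) were not. With 3 libraries a strain, the median 95% interval over all genes tested spanned 0.45 log2 units each way. That interval is not adjusted over genes and is no limit for calls in either direction. Il7r (-0.44) and Mcl1 (0.35) were called below it. Larger differences also went uncalled, such as those of Il9r (-0.46), Il15ra (-0.50) and Eomes (1.86).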
